A study of Mus musculus with 8 samples.

Results

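The comparison described here set basal-like cells without Lats1 against basal-like cells with it. Both kinds of cells came from lines grown out of mammary tumors that the polyoma middle T oncogene drives in mice under the MMTV promoter (PyMT). The tested cells, Lats1-CKO basal-like, carried a conditional Lats1 deletion and were sorted by flow cytometry as EpCAM-low and CD49f-high. The WT basal-like cells were sorted by the same markers, also as EpCAM-low and CD49f-high, from a line with intact Lats1. All lines are labelled as strain FBV/N, and all were grown in DMEM with serum and antibiotics and expanded briefly between the sort and the RNA extraction. Of the 8 MARS-seq libraries in the series, 4 entered this comparison, 2 of Lats1-CKO basal-like and 2 of WT basal-like cells, while 2 Lats1-CKO luminal and 2 WT luminal libraries (EpCAM-high, CD49f-high) served only to estimate the spread and to be set beside the result. The table held 10924 genes, of which 9031 reached 10 normalized reads in 2 or more libraries and were tested. The promoter of the Cre, the deleted exons and the number of tumors or clones behind each line are not given in the sources used here, so a difference between the genotypes cannot be told apart from a difference between lines.

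LATS1 is a serine/threonine kinase of the Hippo pathway. With its paralog LATS2 it phosphorylates the coactivators YAP and TAZ, which keeps them out of the nucleus and away from the TEAD transcription factors. In the mammary gland, luminal cells line the duct and are joined by adherens and tight junctions and by desmosomes, whereas basal cells sit on the basement membrane. Loss of E-cadherin and of the apical machinery, together with gain of matrix genes, is the known hallmark of an epithelial cell that turns mesenchymal, and transcription factors of the Snail and Zeb families are known to repress epithelial genes through the E-box.

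The expression unit was the normalized read count, which is the number of 3' end reads of a gene divided by the size factor of its library. The Lats1-CKO basal-like libraries held 1128766 and 1312264 reads and the WT basal-like libraries 1961501 and 1879429, so that 1 read was worth 1.34 and 1.29 normalized counts in Lats1-CKO basal-like cells and 0.777 and 0.796 in WT basal-like cells. The 2 Lats1-CKO basal-like libraries stood apart from each other. Pearson's r between them, taken across the tested genes on the log2 scale, was 0.792, against 0.886 between the 2 WT basal-like libraries, and genes are not independent replicates. Lats1-CKO basal-like replicate 1 was closer to Lats1-CKO luminal replicate 1 (0.852) and replicate 2 to Lats1-CKO luminal replicate 2 (0.868) than they were to each other. The WT basal-like libraries, replicates 1 and 2, were likewise closer to WT luminal replicate 2 (0.942 and 0.901) than to each other. Replicate numbers were given in accession order and serve as names. The labels do not say that replicates came from separate cultures, so the p-values measure the spread between these libraries, which may be technical.

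Lats1 itself (chromosome 10, 7681214 to 7716460, plus strand, GRCm38) had 8.04 and 11.6 normalized reads in Lats1-CKO basal-like cells, against 30.3 and 42.2 in WT basal-like cells. The groups did not overlap, but Lats1 did not pass the test (log2 fold change -1.78 ± 0.45, SE; limma adjusted p = 0.264), and 3' reads can lie outside the deleted exons. The sort genes were examined next. Epcam, the surface protein by which the populations were gated, had 10.7 and 33.7 in Lats1-CKO basal-like cells, against 562 and 255 in WT basal-like cells. Both groups were sorted as EpCAM-low and then expanded in culture. Epcam RNA in the WT basal-like libraries nevertheless overlapped that in WT luminal cells, which had 708 and 523. Cdh1, which encodes E-cadherin, had 400 and 444 in WT basal-like cells, near the 501 and 539 of WT luminal cells. The luminal keratin Krt18 was lower in WT basal-like cells, at 2450 and 1386, against 3387 and 3746 in WT luminal cells. The study reports that sorted WT basal-like cells became partly luminal over passages, whereas sorted Lats1-CKO basal-like cells stayed basal-like. Whether this had happened in these libraries was not tested. Itga6, which encodes CD49f, had 48.2 and 195 in Lats1-CKO basal-like cells and 139 and 182 in WT basal-like cells. The basal markers were uneven. The keratin Krt14 had 125 and 681 in Lats1-CKO basal-like cells and 2098 and 1098 in WT basal-like cells, whereas other defining markers were low in both groups. The basal keratin Krt5 stood at 22.8 and 24.6 in Lats1-CKO basal-like cells and 31.9 and 18.3 in WT basal-like cells, the basal regulator Trp63 at 21.4 and 0 against 4.66 and 5.57, and the smooth muscle genes Acta2, Myh11 and Mylk of myoepithelial cells were not analysed here. The 13 basal and myoepithelial markers in the table summed to 228 and 927 in Lats1-CKO basal-like cells and 2335 and 1317 in WT basal-like cells. The name basal-like refers to the gate.

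A set of epithelial genes was far lower in Lats1-CKO than in WT basal-like cells. With limma on log2(normalized read count + 1), 50 of 9031 genes passed a Benjamini-Hochberg adjusted p of 0.05 (0.554% of those tested), 10 higher (0.111%) and 40 lower (0.443%) in Lats1-CKO basal-like cells, and 800 had an unadjusted p under 0.05. The 40 lower genes had a median log2 fold change of -4.04, or -3.96 with the gene that had 0 reads put at its bound, and the 10 higher genes one of 4.44. Over all genes tested the median was -0.02, with a positive sign for 4346 and a negative sign for 4685. For each of the 50 genes both Lats1-CKO basal-like libraries lay on 1 side of both WT basal-like libraries, which over all genes tested was so for 17.1% in the higher and 18.2% in the lower direction. Between the 2 Lats1-CKO basal-like libraries the median log2 gap of the 40 lower genes was 0.42 and the widest 1.88. Because the genes were called on these same libraries, the separation and the gaps are descriptions.

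**Figure D1:**
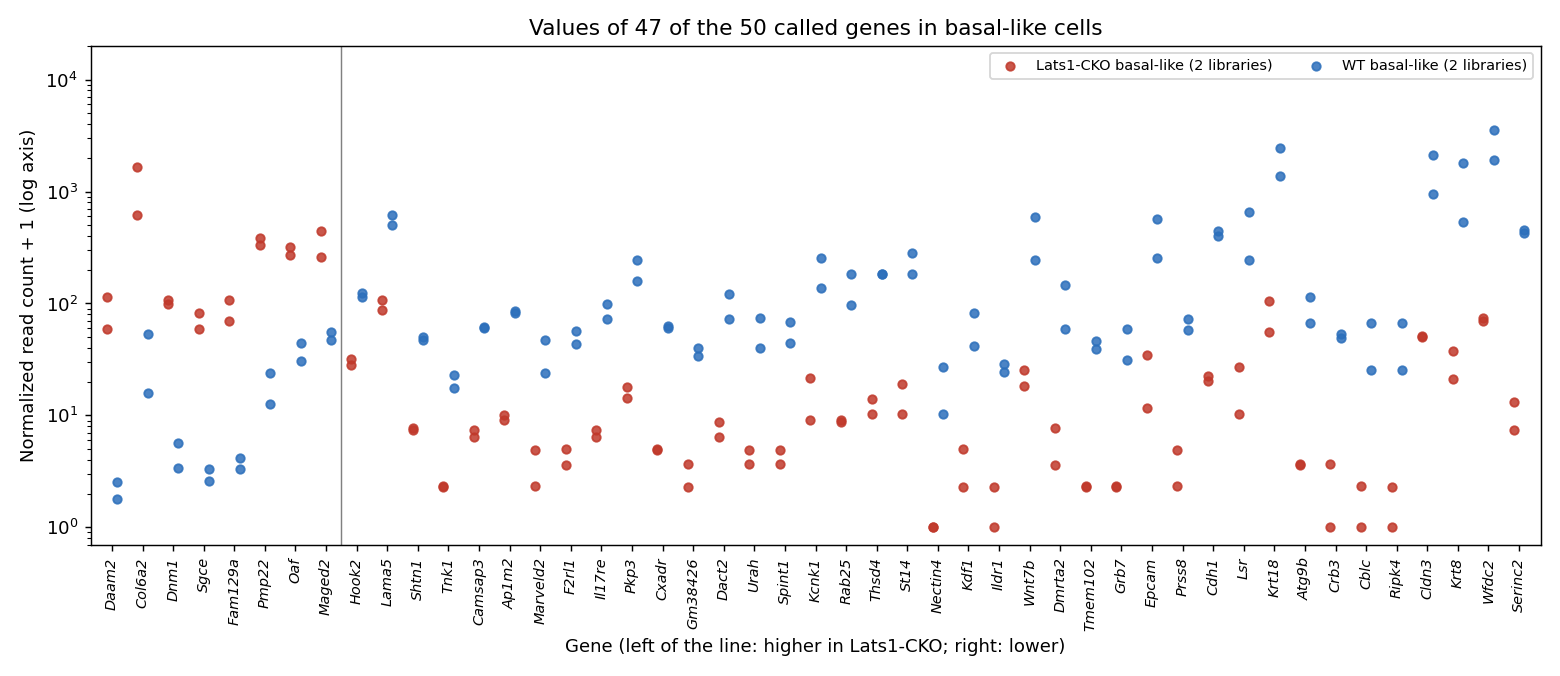
Normalized read count + 1 (log axis) of 8 of the 10 genes called higher and 39 of the 40 called lower, with 2 points for Lats1-CKO basal-like and 2 for WT basal-like libraries per gene. No gene shown has overlapping groups, and for 9 of the 40 lower genes the Lats1-CKO libraries together held 0 to 3 reads.

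The number of calls depended on how the spread was estimated. Limma called 0 genes with only the 4 basal-like libraries in the model (558 at an unadjusted p under 0.05), 0 when WT basal-like replicate 1 was left out and 4 when replicate 2 of that group was. Without Lats1-CKO basal-like replicate 1 it called 20 genes, 14 of them among the 50, and without replicate 2 it called 78, 31 of them among the 50. Without 1 of the luminal libraries, which carry no part of the difference, it called 9 to 25. DESeq2, run on all 10924 genes, called 89 higher and 95 lower genes, of which 86 and 95 were among the 9031. With edgeR 5 were higher and 12 lower, so the excess of lower genes in limma was not shared by DESeq2. All 50 genes kept their direction under every alternative tried. Their groups did not overlap, so leaving out a library or changing the pseudocount or filter could not have reversed that direction. Of the 50 called genes 47 are described, and some of the list members that were not called were picked after their values were seen.

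Adhesion proteins of the lateral membrane were among the lowest. Cdh1, E-cadherin, the core of the adherens junction (chromosome 8, 106603351 to 106670246, plus strand), had 21.4 and 19.4 normalized reads in Lats1-CKO basal-like cells, against 400 and 444 in WT basal-like cells. Its log2 fold change of -4.30 ± 0.25 had the lowest adjusted p of all genes (limma adjusted p = 0.00251). Nectin4, an immunoglobulin-like adhesion molecule that signals through afadin, had 0 reads in both Lats1-CKO basal-like libraries, against 9.33 and 26.3 normalized reads in WT basal-like cells. Over both libraries of a group this was 0 reads, against 45. Cxadr, the coxsackievirus and adenovirus receptor, which is a junctional adhesion molecule (chromosome 16, 78301489 to 78359774, plus strand), had 4.02 and 3.88, against 62.2 and 58.9 (-3.64 ± 0.41; limma adjusted p = 0.0227). Both libraries of a group agreed closely for Cdh1 and Cxadr.

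The cytoplasmic partners of E-cadherin did not pass the test. Of 11 tested adherens junction genes 3 fell (Cdh1, Epcam and Nectin4) and none rose, with a median log2 fold change of -0.65. Of all 9031 genes tested 40 fell. This list and those below were chosen with earlier results of these data known. Ctnnb1, beta-catenin, had 888 and 1054 in Lats1-CKO basal-like cells and 814 and 1330 in WT basal-like cells (log2 fold change -0.11 ± 0.32). Ctnna1, alpha-catenin, which anchors the complex to actin, had 443 and 444, against 693 and 536 (-0.46 ± 0.26), and neither passed the test. Lama5, the laminin alpha-5 chain, was the only called gene of 16 tested basement membrane genes, with 87.1 and 107 in Lats1-CKO basal-like cells, against 506 and 616 in WT basal-like cells (-2.52 ± 0.31; limma adjusted p = 0.0237). The laminin beta-3 chain Lamb3 had 5.36 and 54.4, against 120 and 132, and missed the threshold (-2.76 ± 1.06; limma adjusted p = 0.499), with Lats1-CKO libraries that lay far apart.

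Tight junction genes were lower as a group. All 17 tested members had a negative log2 fold change, and 4 fell and none rose. Of the 17, 12 had an unadjusted p under 0.05, and the median was -2.85 (-2.56 with members at 0 reads at their bound). Among all 9031 genes tested, 40 fell and 442 were lower at an unadjusted p under 0.05. The proteins of the tricellular corner, where 3 cells meet, fell together. Lsr, the lipolysis-stimulated lipoprotein receptor or angulin-1, had 9.38 and 25.9 in Lats1-CKO basal-like cells, against 655 and 245 in WT basal-like cells. Ildr1, angulin-2, had 0 and 1.29, against 23.3 and 27.8, and its 1 read against 65 made a ratio of 38.8 (95% counting interval 6.73 to 1557). Marveld2, tricellulin, which the angulins recruit, had 1.34 and 3.88, against 46.6 and 23.1 (-3.32 ± 0.51; limma adjusted p = 0.0487). The claudin Cldn3, which seals the paracellular space, had 49.6 and 50.5, against 2128 and 955 (-4.81 ± 0.71; limma adjusted p = 0.0411), while Cldn7 missed the threshold at 18.8 and 25.9, against 376 and 333 (-3.94 ± 0.65; limma adjusted p = 0.065). The scaffold Tjp1, by contrast, had few reads in either group (16.1 and 5.18, against 22.5 and 21.5).

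Among the lists, the largest share of calls was in the apical polarity and membrane protease genes, where 7 of 15 tested fell and none rose. Of the 15, 13 had an unadjusted p under 0.05, and the median log2 fold change was -3.15. Among all 9031 genes tested, 40 fell and 442 were lower at an unadjusted p under 0.05. Several of the 15 belong to a proteolytic cascade of the epithelial surface. St14, matriptase, a transmembrane serine protease (chromosome 9, 31089402 to 31131853, minus strand), had 9.38 and 18.1 in Lats1-CKO basal-like cells, against 280 and 181 in WT basal-like cells (-4.01 ± 0.40; limma adjusted p = 0.0149). Prss8, prostasin, the protease that acts with matriptase, had 1.34 and 3.88, against 57.5 and 72.4 (-4.28 ± 0.44). Their Kunitz-type inhibitor Spint1, HAI-1, had 2.68 and 3.88, against 67.6 and 43.8 (-3.71 ± 0.44). Outside that list, F2rl1, the protease-activated receptor PAR2, which this cascade is known to activate, had 4.02 and 2.59, against 56.0 and 42.2 (-3.55 ± 0.43). These genes all passed the test in the same direction (limma adjusted p of 0.0149 to 0.0237), while the second inhibitor, Spint2, had 13.4 and 62.1, against 281 and 193, and did not (limma adjusted p = 0.174).

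Genes of polarized membrane traffic and of the apical membrane and cortex fell in the same way. Rab25, a small GTPase of the apical recycling endosome (chromosome 3, 88542029 to 88548300, minus strand), had 8.04 and 7.77 in Lats1-CKO basal-like cells, against 182 and 96.3 in WT basal-like cells (-3.91 ± 0.36; limma adjusted p = 0.0143). Ap1m2, the epithelial mu subunit of the AP-1 clathrin adaptor, which sorts cargo to the basolateral side, had 8.04 and 9.06, against 85.5 and 81.9 (-3.15 ± 0.32; limma adjusted p = 0.0149). Crb3, the Crumbs protein of the apical membrane, had 2 reads over both Lats1-CKO basal-like libraries, against 127 in WT basal-like cells. Camsap3, which anchors microtubule minus ends at the apical cortex, had 5.36 and 6.47, against 59.8 and 60.5 (-3.15 ± 0.46; limma adjusted p = 0.0372). Prom2, Myo5b and Sh3yl1 of the same list had log2 fold changes of -3.47, -2.40 and -2.65 and did not pass.

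Desmosome and keratin genes gave 3 calls of 12 tested, all lower, with a negative sign for all 12 and a median log2 fold change of -2.49. Of all 9031 genes tested 40 fell. Pkp3, plakophilin 3, which links desmosomal cadherins to keratin filaments (chromosome 7, 141078218 to 141090510, plus strand), had 13.4 and 16.8 in Lats1-CKO basal-like cells, against 246 and 158 in WT basal-like cells (-3.63 ± 0.31; limma adjusted p = 0.0143). The simple keratins Krt8 and Krt18, which form 1 filament together, had 20.1 and 36.2 and 54.9 and 104 in Lats1-CKO basal-like cells, against 1811 and 529 and 2450 and 1386 in WT basal-like cells. Krt7, another simple keratin, had 97.8 and 93.2, against 4471 and 610, and did not pass, with WT libraries that lay far apart (-4.10 ± 0.97; limma adjusted p = 0.222). The desmosomal plaque protein Dsp had groups that overlapped, with 25.4 and 168, against 183 and 125. Corneodesmosin, Cdsn, an adhesion protein of cornified skin, was not placed in this list and went the other way. It had 99.1 and 944, against 1.55 and 2.39 (limma adjusted p = 0.0562). The basal keratin Krt14 was lower as well, at 125 and 681, against 2098 and 1098, without passing (limma adjusted p = 0.537).

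The regulators known to hold the epithelial program gave 1 call of 16 tested, Cxadr, which was placed in that list and is itself a junction protein. Of all 9031 genes tested 40 fell. The splicing regulator Esrp1 had 1.34 and 6.47 in Lats1-CKO basal-like cells, against 71.5 and 43.8 in WT basal-like cells (-3.77 ± 0.66; limma adjusted p = 0.0845), and Grhl2, a grainyhead factor, had 4.02 and 5.18, against 44.3 and 20.7 (-2.49 ± 0.46; limma adjusted p = 0.104). Ovol1, a zinc finger repressor of mesenchymal genes, had 0 reads in Lats1-CKO basal-like cells, against 17.1 and 3.98. Of the 16, 14 had a negative sign, with a median of -1.83, or -1.44 with members at 0 reads at their bound. Gata3, the luminal master regulator, was not among the low ones, with 410 and 236, against 352 and 470 (-0.39 ± 0.34).

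**Figure D2:**
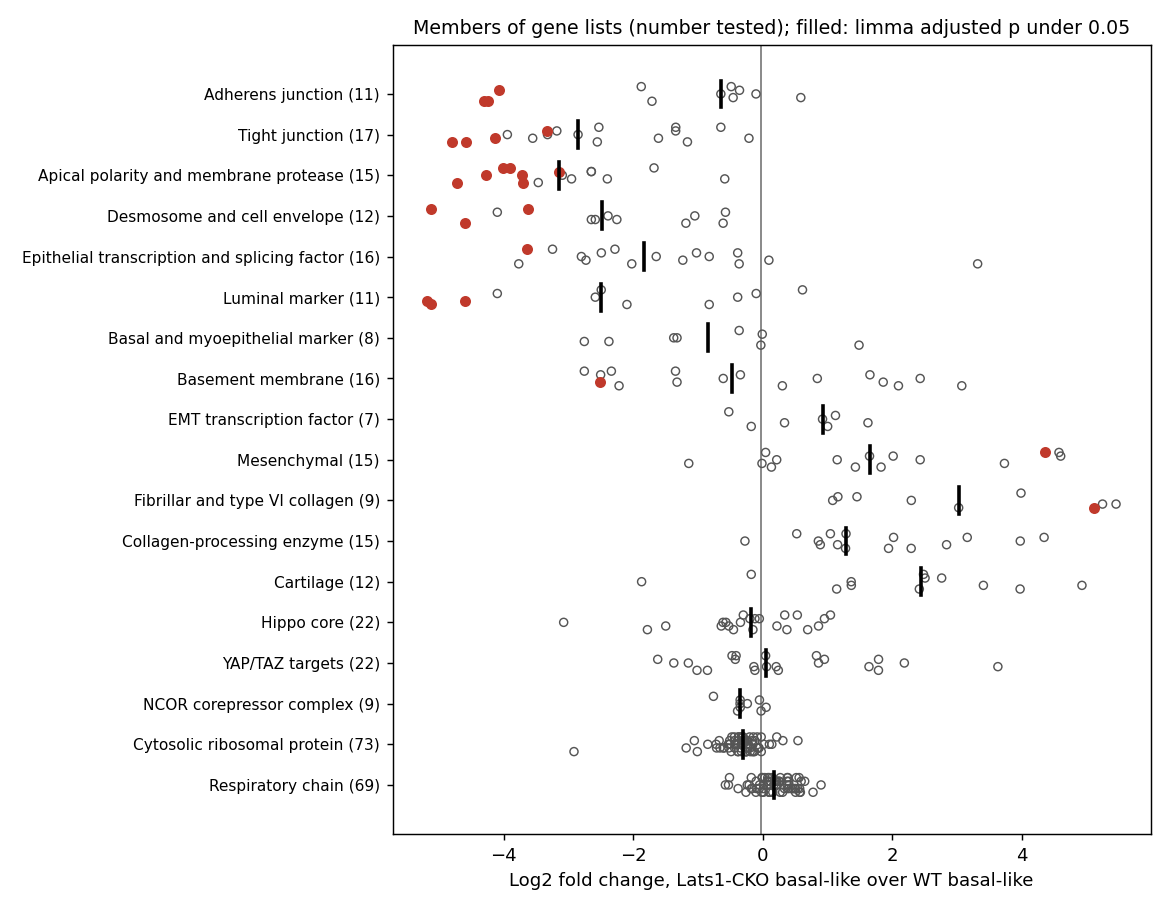
Log2 fold change, Lats1-CKO basal-like over WT basal-like, of every tested member of 18 gene lists; filled points passed limma at an adjusted p of 0.05, open points did not, the short bar is the median of the list and the grey line the median of all genes tested (-0.02). The tight junction, desmosome and apical genes of these lists lie left of 0, and no tested tight junction gene lies right of it.

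The other called genes that fell were spread over signalling, epidermal differentiation and secretion. Among kinases and adaptors, Grb7, an adaptor of ErbB receptors, had 1.34 and 1.29 in Lats1-CKO basal-like cells, against 58.3 and 30.2 in WT basal-like cells, which was 2 reads against 113 and a ratio of 33.7 (95% counting interval 9.13 to 282). Tnk1, a nonreceptor tyrosine kinase, had 2 reads against 49, a ratio of 14.6 (3.84 to 124). Kdf1, a keratinocyte differentiation factor, had 4.02 and 1.29, against 80.8 and 40.6 (-4.10 ± 0.51; limma adjusted p = 0.0237). Il17re, a receptor for the epithelial cytokine IL-17C, had 5.36 and 6.47, against 97.9 and 72.4 (-3.63 ± 0.36; limma adjusted p = 0.0149). Wnt7b, a Wnt ligand (chromosome 15, 85535437 to 85582473, minus strand), had 17.4 and 24.6, against 588 and 244, and Dact2, a modulator of Wnt and TGF-beta signals, had 5.36 and 7.77, against 120 and 72.4. The groups of none of these genes overlapped.

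Other members of this group included Tmem102, a transmembrane protein, with 1.34 and 1.29 in Lats1-CKO basal-like cells, against 38.1 and 45.3 in WT basal-like cells, which was 2 reads against 106. Thsd4, a secreted protein of fibrillin microfibrils, had 9.38 and 12.9, against 181 and 181. Kcnk1, a pore-forming potassium channel, had 8.04 and 20.7, against 253 and 136, and Urah, an enzyme of urate breakdown, had 2.68 and 3.88, against 73.1 and 39.0. Dmrta2, a DM-domain transcription factor, had 6.70 and 2.59, against 58.3 and 145, so here the second WT library was the higher one. The smallest change among the 40 was that of Hook2, a microtubule adaptor, with 30.8 and 27.2, against 113 and 123 (-1.98 ± 0.28; limma adjusted p = 0.0349). Gm38426, with 3 reads against 91, and Shtn1, a guidance adaptor of neurons, with 6.70 and 6.47, against 49.0 and 46.1, were called too. Wfdc2, a secreted protein of the whey acidic protein type, had 68.3 and 73.8, against 3553 and 1928 (-5.18 ± 0.79; limma adjusted p = 0.0459). Serinc2, a membrane protein, had 12.1 and 6.47, against 451 and 430, the largest change of the 40 (-5.48 ± 0.36). Atg9b, an autophagy protein, had 2.68 and 2.59, against 114 and 66.0. Cblc, an epithelial ubiquitin ligase, and Ripk4, a kinase that keratinocytes need to differentiate, had 1 read each over both Lats1-CKO libraries, against 115 for Cblc and 116 for Ripk4 in WT basal-like cells. Gm38426 is a predicted gene model whose reads could be shared with a neighbour, and its value is uncertain.

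The promoters of the 40 lower genes were searched for the E-box that Snail and Zeb factors bind (CACCTG or its reverse complement CAGGTG). This motif was chosen with earlier results of these data known. Promoters ran from 250 bases before to 50 bases after a RefSeq start site (GRCm38.p6). Of the 40 lower genes 27 had a promoter in the RefSeq table, and 19 of these (70.4%) held the E-box in at least 1 promoter, against 1503 of 7282 tested genes with a promoter (20.6%). Counted per promoter the share was 67.6% of 34, against 17.8% of 9363, and 11 of the 34 held it at least 2 times, against 224 of the 9363. None of the 6 higher genes with a promoter held it. The median GC content of the promoters was 59.5% for the lower genes and 61.7% for all genes tested. These shares describe letters and were not tested, and a match is not a binding site. Epithelial genes that did not fall were not set beside them. A trait of the lower genes thus cannot be told apart from one of epithelial promoters at large. Of the lower genes with at least 2 matches, 4 were picked after the search as examples that encode junction or apical proteins and are shown (Epcam, chr17:87635729-87636028, plus strand; Crb3, chr17:57061951-57062250, plus strand; Rab25, chr3:88548230-88548529, minus strand; Lsr, chr7:30973420-30973719, minus strand), 5′ to 3′ with the E-box in capitals.
Epcam: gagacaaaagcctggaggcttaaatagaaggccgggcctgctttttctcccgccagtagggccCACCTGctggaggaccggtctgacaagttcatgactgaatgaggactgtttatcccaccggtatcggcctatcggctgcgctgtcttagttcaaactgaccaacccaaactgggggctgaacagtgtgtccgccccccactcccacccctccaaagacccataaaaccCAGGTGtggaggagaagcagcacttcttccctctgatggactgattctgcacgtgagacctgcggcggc
Crb3: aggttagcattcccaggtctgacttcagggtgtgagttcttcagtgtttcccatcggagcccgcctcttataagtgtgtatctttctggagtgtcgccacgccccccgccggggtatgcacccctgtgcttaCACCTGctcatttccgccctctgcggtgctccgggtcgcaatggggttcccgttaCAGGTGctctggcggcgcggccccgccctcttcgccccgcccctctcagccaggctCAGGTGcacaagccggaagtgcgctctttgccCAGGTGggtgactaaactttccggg
Rab25: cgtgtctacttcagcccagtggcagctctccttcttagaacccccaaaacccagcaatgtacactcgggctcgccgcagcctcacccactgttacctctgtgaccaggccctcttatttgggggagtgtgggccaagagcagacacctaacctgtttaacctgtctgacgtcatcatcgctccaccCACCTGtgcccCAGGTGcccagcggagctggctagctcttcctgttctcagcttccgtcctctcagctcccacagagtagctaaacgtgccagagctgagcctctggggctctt
Lsr: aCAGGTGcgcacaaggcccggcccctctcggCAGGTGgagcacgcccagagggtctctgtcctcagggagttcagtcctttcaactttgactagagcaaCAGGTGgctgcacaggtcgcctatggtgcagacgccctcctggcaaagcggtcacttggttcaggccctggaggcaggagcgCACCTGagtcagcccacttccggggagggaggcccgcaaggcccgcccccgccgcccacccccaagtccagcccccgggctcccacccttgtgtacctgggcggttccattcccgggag

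In these 4 promoters the E-box began at positions -187 and -19 from the start site for Epcam, at -118, -63, -7 and 26 for Crb3, at -64 and -53 for Rab25, and at -249, -219, -151 and -69 for Lsr. The TEAD motif (GGAATG or its reverse complement CATTCC), to which YAP and TAZ are recruited, stood in 14.8% of the lower genes, 50% of the 6 higher genes and 14.2% of all genes tested. Counted per promoter, these shares were 11.8% of 34, 21.4% of 14 and 12.1% of 9363. The AP-1 motif TGANTCA stood in 7.41% of the lower genes, in no higher gene and in 6.06% of all. The 50% rests on 3 genes, of which Col6a2 (chr10:76623355-76623654, minus strand) and Pmp22 (chr11:63128732-63129031, plus strand) are shown with the TEAD motif in capitals, 1 of 2 and 1 of 4 promoters listed for the gene.
Col6a2: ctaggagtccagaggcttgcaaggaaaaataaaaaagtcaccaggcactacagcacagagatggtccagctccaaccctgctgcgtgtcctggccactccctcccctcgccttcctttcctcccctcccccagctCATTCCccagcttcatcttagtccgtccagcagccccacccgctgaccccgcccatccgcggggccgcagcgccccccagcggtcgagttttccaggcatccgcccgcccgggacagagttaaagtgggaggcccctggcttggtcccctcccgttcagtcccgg
Pmp22: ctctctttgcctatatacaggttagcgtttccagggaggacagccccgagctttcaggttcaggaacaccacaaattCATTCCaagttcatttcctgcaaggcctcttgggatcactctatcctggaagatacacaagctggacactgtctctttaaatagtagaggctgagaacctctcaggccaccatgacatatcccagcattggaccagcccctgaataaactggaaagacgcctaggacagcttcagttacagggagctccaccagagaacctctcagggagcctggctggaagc

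**Figure D3:**
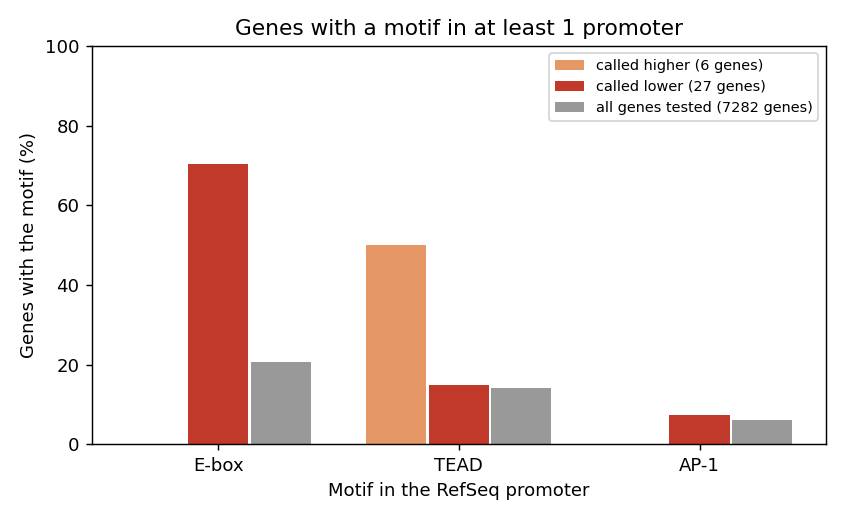
Percent of genes with a RefSeq promoter that hold each motif (E-box, TEAD, AP-1) in at least 1 promoter, for the 6 higher genes, the 27 lower genes and the 7282 genes tested. The E-box stands in 70.4% of the lower genes, against 20.6% of all genes tested, and TEAD stands in 50% of the 6 higher genes, which is 3 genes, against 14.2% of all. Counted per promoter, TEAD stands in 21.4% of the 14 promoters of higher genes, against 12.1% of 9363.

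Genes that rose were fewer. Col6a2, which encodes a chain of collagen VI, had 611 and 1653 normalized reads in Lats1-CKO basal-like cells, against 14.8 and 52.5 in WT basal-like cells (5.11 ± 0.74; limma adjusted p = 0.0372). The 2 Lats1-CKO libraries lay further apart for Col6a2 than for any other higher gene, but both stayed above both WT libraries.

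Other genes that rose encode membrane, trafficking and secreted proteins. Pmp22, a membrane protein of myelin, had 383 and 331 in Lats1-CKO basal-like cells, against 11.7 and 23.1 in WT basal-like cells. Dnm1, dynamin 1, a GTPase of vesicle scission, had 107 and 98.4, against 4.66 and 2.39. Sgce, epsilon-sarcoglycan, which is imprinted, had 80.4 and 58.2, against 2.33 and 1.59. Of the others, Fam129a, a stress-response protein also called Niban, had 106 and 68.6, against 2.33 and 3.18 (4.53 ± 0.50; limma adjusted p = 0.0219), the lowest adjusted p of the higher genes. Daam2, a formin of Wnt signalling, had 114 and 58.2, against 1.55 and 0.796, Maged2, a MAGE-family protein, had 260 and 444, against 45.9 and 54.9, and the secreted protein Oaf had 272 and 321, against 43.5 and 29.4. In the luminal libraries all 10 were also higher in Lats1-CKO than in WT cells (median log2 fold change 1.98).

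Matrix genes around Col6a2 mostly leaned up without passing. All 9 tested fibrillar and type VI collagen genes had a positive log2 fold change, with a median of 3.03, 1 rose and 5 had an unadjusted p under 0.05. Among all 9031 genes tested, 10 rose and 358 were higher at an unadjusted p under 0.05. Col6a1 had 739 and 2453 in Lats1-CKO basal-like cells, against 40.4 and 173 in WT basal-like cells (3.99 ± 1.16; limma adjusted p = 0.349), and Col6a3 had 42.9 and 466, against 3.11 and 1.59 (5.45 ± 1.06; limma adjusted p = 0.126). Of 15 tested collagen-processing enzymes 14 had a positive sign (median 1.29) and 0 passed limma or edgeR, with 6 at an unadjusted p under 0.05 and 3 called by DESeq2. Among them P3h3, a prolyl hydroxylase, had 72.3 and 50.5, against 5.44 and 6.36 (3.16 ± 0.50; limma adjusted p = 0.0556). Of 15 mesenchymal genes 13 had a positive sign (median 1.65) and only Pmp22 rose. Vim, the mesenchymal intermediate filament, had 10596 and 15998, against 2578 and 5225 (1.83 ± 0.50), and Fn1, fibronectin, 5769 and 12369, against 2490 and 5826, with groups that overlapped.

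The transcription factors known to drive the epithelial to mesenchymal transition gave no call. Of 7 tested, 5 had a positive sign (median 0.92), 0 passed limma, edgeR or DESeq2, and 1 had an unadjusted p under 0.05. That gene was Twist1, with 249 and 199 in Lats1-CKO basal-like cells, against 120 and 115 in WT basal-like cells (0.92 ± 0.30; limma adjusted p = 0.421). Snai1 had 413 and 123, against 102 and 123, and Snai2 had 16.1 and 38.8, against 7.77 and 7.16 (1.62 ± 0.94). Zeb1, at 14.7 and 9.06, against 4.66 and 6.36, was too low to be tested, and Zeb2 was not analysed here.

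Markers of other cell types were measured beside these matrix genes. Of 12 fibroblast markers 6 were in the table, with a summed normalized read count of 826 and 837 in Lats1-CKO basal-like cells, against 454 and 396 in WT basal-like cells, most of it from Gsn, which many cells express (560 and 720, against 450 and 327). All 5 tested had a positive log2 fold change and none passed limma. Thy1 had reads in both Lats1-CKO libraries only (30.8 and 16.8, against 0 and 0), while Pdgfra (76.3 and 2.59, against 1.55 and 4.77), Dcn (0 and 12.9, against 0 and 0) and Col15a1 (0 and 59.5, against 0 and 0) were each above 10 in 1 Lats1-CKO library. Of 10 endothelial markers 2 were in the table (sums of 37.5 and 1.29, against 7.77 and 4.77), of 12 immune markers 3 (33.5 and 89.3, against 11.7 and 8.75) and of 8 adipocyte markers 3 (319 and 20.7, against 7.0 and 39.0). Of 10 Schwann cell and muscle markers 3 were in the table (29.5 and 940, against 216 and 137), with Sox10 at 0 reads in both Lats1-CKO libraries. In cultures of these tumors, the study reports more cells in Lats1-CKO than in WT that it classed as fibroblasts by LATS1 and CD44 protein. The extent varied between cultures. The part of such cells, or of the other cell types, in the higher genes was not tested. In bulk libraries, fewer cells of a type and less RNA per cell cannot be told apart.

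Replicates 1 and 2 of Lats1-CKO basal-like cells were far apart for many genes. Over the genes tested, the median absolute difference between the libraries of a group was 0.60 on the log2 scale in Lats1-CKO basal-like cells and 0.49 in WT basal-like cells, and 470 and 156 genes differed by more than 3. Most of the cartilage genes were high in replicate 2 and not in replicate 1. Col2a1, the cartilage collagen, had 95.1 and 22433 in Lats1-CKO basal-like cells, against 80.8 and 106 in WT basal-like cells. Acan, aggrecan, had 29.5 and 5422, against 38.1 and 36.6, and Ucma, a cartilage matrix protein, had 2.68 and 2391, against 6.22 and 14.3. The 15 cartilage genes in the table summed to 315 and 32350, against 456 and 706. None of the 12 tested passed limma (1 at an unadjusted p under 0.05, Fmod, and 1 by DESeq2, Col2a1), their median log2 fold change was 2.45, and only for Fmod did both Lats1-CKO libraries lie above both WT libraries.

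Other genes, picked for their gap, were high in replicate 1. Cxcl12, a chemokine of stroma, had 2881 and 12.9 in Lats1-CKO basal-like cells, against 42.7 and 35.8 in WT basal-like cells, and Lox, which cross-links collagen, had 1889 and 44.0, against 65.3 and 85.9. Igf2, an imprinted growth factor, had 3012 and 37.5, against 17.1 and 11.9, and Mmp2, a gelatinase, had 442 and 42.7, against 7.0 and 12.7. The immunoproteasome subunit Psmb8 (683 and 2.59, against 7.0 and 7.96) and the homeobox gene Msx1 (186 and 0, against 1.55 and 0) followed the same library. The same split ran through the luminal libraries of that genotype, with Cxcl12 at 248 and 16.1 and Acan at 24.9 and 482 in Lats1-CKO luminal replicates 1 and 2. In WT basal-like cells the widest gap was that of Mir692-1 (2510 and 23.1), whose reads can come from several copies and which was wide in Lats1-CKO basal-like cells too. It was followed by Cyp2f2, a cytochrome P450 (11.7 and 1280), Rnase1, a secreted ribonuclease (0.777 and 134), and Coro2b, a coronin (0.777 and 116). None of the genes named here as split between replicates was called by limma.

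**Figure D4:**
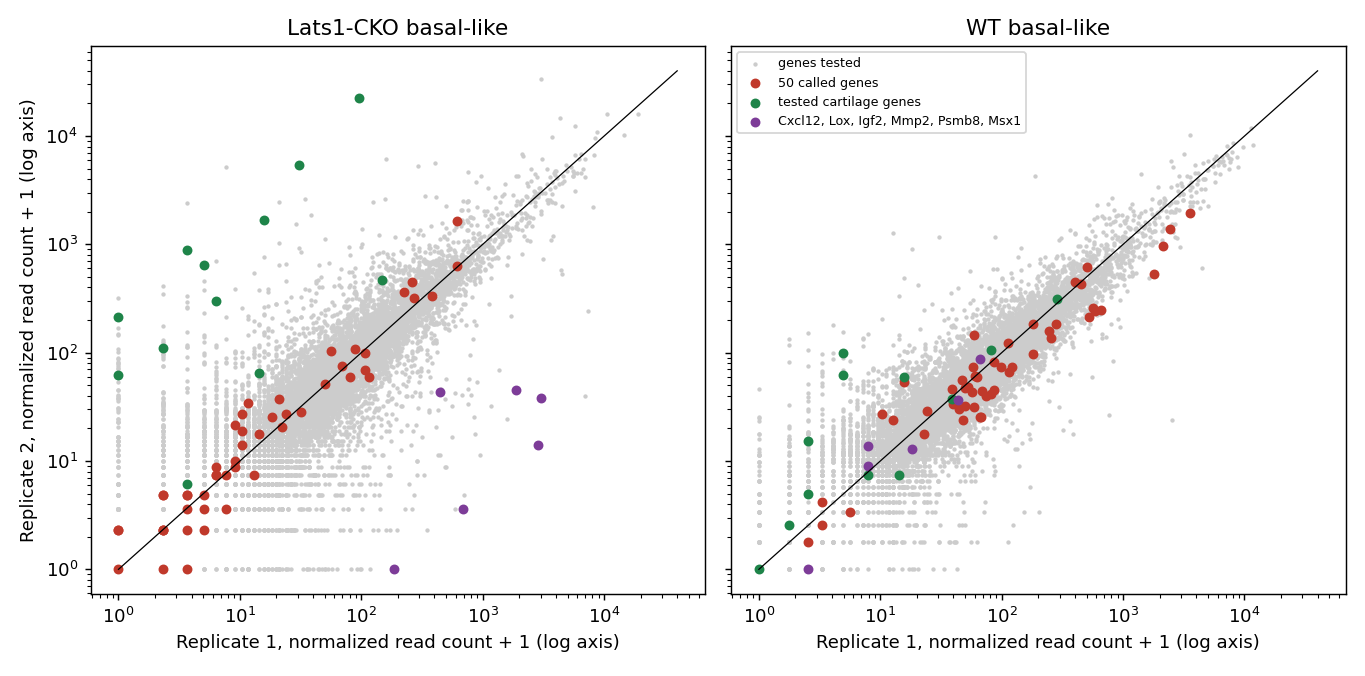
Normalized read count + 1 (log axes) of the 9031 genes tested in replicate 2 against replicate 1, for Lats1-CKO basal-like (left) and WT basal-like (right), with the tested cartilage genes, the genes Cxcl12, Lox, Igf2, Mmp2, Psmb8 and Msx1, and the 50 called genes marked. Most of the cartilage genes lie far above the diagonal in the left panel, and the 6 named genes far below it, while the called genes lie nearer to it.

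Hippo pathway genes and YAP and TAZ targets gave no limma call. Of 22 tested Hippo genes 8 had a positive and 14 a negative log2 fold change (median -0.18), and 0 passed limma or edgeR, with 4 at an unadjusted p under 0.05 and 1 called by DESeq2. Over all genes tested, 800 of 9031 had an unadjusted limma p under 0.05. Lats2, the paralog, had 87.1 and 80.2 in Lats1-CKO basal-like cells, against 46.6 and 44.6 in WT basal-like cells (0.86 ± 0.33; limma adjusted p = 0.506), a gap wider than that between replicates. Tead2, a DNA-binding partner of YAP, had 44.2 and 19.4, against 212 and 306 (-3.07 ± 0.77; limma adjusted p = 0.264). Yap1 had 205 and 141, against 198 and 222 (-0.30 ± 0.28), and Wwtr1, which encodes TAZ, 58.9 and 45.3, against 42.0 and 78.8 (-0.15 ± 0.44). The upstream scaffold Wwc1, KIBRA, differed between the Lats1-CKO libraries at 41.5 and 441, against 421 and 355.

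Among 22 tested YAP and TAZ targets 12 had a positive and 10 a negative sign (median 0.05). None passed limma or edgeR. Of the 22, 8 had an unadjusted limma p under 0.05, against 800 of all 9031 genes tested. DESeq2 called 2, both higher, against 86 higher and 95 lower of the 9031. Ccn1, a matricellular protein (Cyr61), had 1392 and 2484 in Lats1-CKO basal-like cells, against 636 and 456 in WT basal-like cells (1.79 ± 0.47; limma adjusted p = 0.292). F3, tissue factor, had 232 and 141, against 38.1 and 70.0 (1.79 ± 0.44; limma adjusted p = 0.259). Ccn2 (CTGF) differed between the Lats1-CKO libraries, with 53.6 and 674, against 190 and 177. Ankrd1 ran the other way, with 157 and 82.8, against 472 and 187 (-1.37 ± 0.58), and Ajuba, an inhibitor of LATS, with 161 and 122, against 355 and 227 (-1.02 ± 0.35). Axl was level, at 671 and 681, against 695 and 619.

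The corepressor NCOR1, with which the study concerns itself, and its partners gave no call either. These are RNA values. The mechanism that the study proposes concerns the NCOR1 protein, its binding to LATS1 and HDAC1 and its recruitment to chromatin, which were not measured here. Of 9 tested members of the complex 8 had a negative sign (median -0.35), and 0 passed limma, edgeR or DESeq2 or an unadjusted p of 0.05. Ncor1 had 79.0 and 69.9 in Lats1-CKO basal-like cells and 70.0 and 81.9 in WT basal-like cells (-0.03 ± 0.28), and Hdac3 37.5 and 18.1, against 40.4 and 50.1 (-0.76 ± 0.46). The 6 tested genes assayed by the study as NCOR1-repressed all had a positive sign (median 1.30), with 0 passing limma or edgeR, 1 at an unadjusted p under 0.05 and 1 called by DESeq2. Part of that list was chosen on these samples, so its direction is not independent evidence. Col5a1, a fibrillar collagen chain, had 229 and 243, against 27.2 and 81.9 (2.29 ± 0.55; limma adjusted p = 0.229), whereas Pdgfrb, with 666 and 198, against 37.3 and 352, and Ccna2, cyclin A2, with 45.5 and 23.3, against 47.4 and 17.5, overlapped.

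The difference was then set beside that of the luminal cells of the same lines. For the 40 genes lower in Lats1-CKO basal-like cells, the median log2 fold change of Lats1-CKO luminal over WT luminal was -0.43, with a negative sign for 34, and in all 40 both Lats1-CKO basal-like libraries lay below both Lats1-CKO luminal libraries, which was so for 18% of all genes tested. Since these genes were picked for low values in the same Lats1-CKO basal-like libraries, this count is a description. Cdh1 had 368 and 398 in Lats1-CKO luminal cells, against 501 and 539 in WT luminal cells, and Pkp3 had 385 and 441, against 332 and 323. Urah, at 231 and 315, against 176 and 98.2, and Camsap3, at 116 and 237, against 127 and 68.9, were higher on average in Lats1-CKO luminal cells. The luminal libraries share no sample with the basal-like comparison. In luminal cells limma and edgeR called 0 of 9031 genes (251 at an unadjusted p under 0.05 by limma) and DESeq2 called 27 of 10924.

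The difference between the 2 genotype effects was tested as an interaction. No gene passed limma or edgeR (210 of the 9031 at an unadjusted limma p under 0.05). DESeq2 with default settings called 22 of 10924 genes, 1 higher and 21 lower in basal-like cells. The lowest limma value was that of Cdh1 (interaction -3.86 on the log2 scale, limma adjusted p = 0.0652), followed by Serinc2 (-4.74) and Pkp3 (-3.96) at an adjusted p of 0.0912. For all 40 lower genes the interaction was negative with an unadjusted p under 0.05 (median -3.60), but these genes had been picked by the basal-like difference that is 1 part of the interaction, so the count is a description. Col6a2, Pmp22 and Oaf had an interaction of 0.85, 1.40 and 0.82 with an unadjusted p above 0.05.

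**Figure D5:**
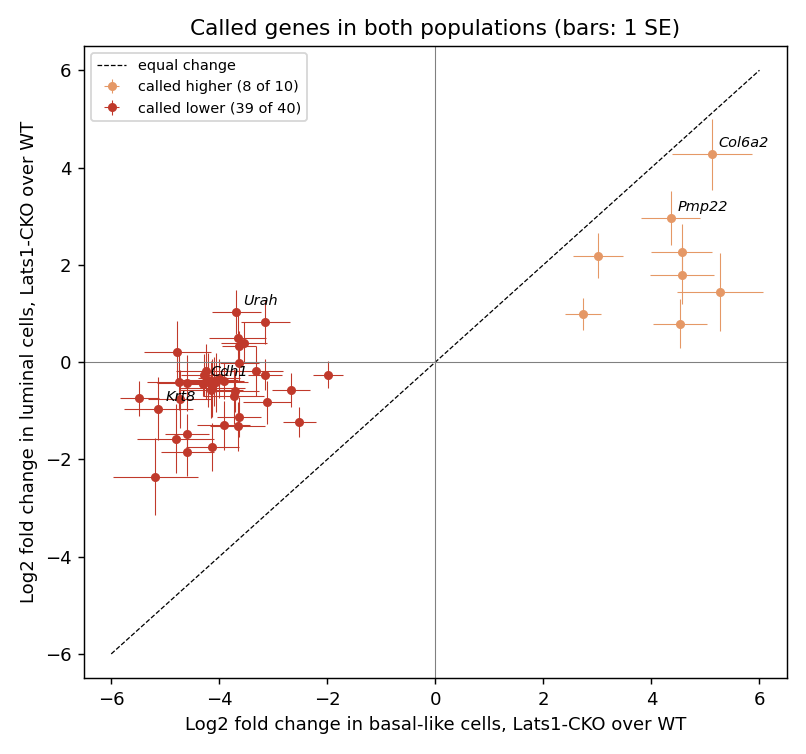
Log2 fold change of Lats1-CKO over WT in basal-like cells (horizontal axis) and in luminal cells (vertical axis) for 47 of the 50 called genes, with bars of 1 SE and the line of equal change. The 39 lower genes shown lie at -5.48 to -1.98 in basal-like cells and at -2.36 to 1.03 in luminal cells, while the 8 higher genes shown are above 0 on both axes.

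Several other lists gave no limma call. The 19 G2/M and 15 S phase genes tested had medians of -0.45 and -0.32, with none at an unadjusted p under 0.05 and none called by limma, edgeR or DESeq2, and the interferon-stimulated (14 tested, 0.29), AP-1 and immediate-early (16 tested, -0.12), estrogen receptor target (7 tested, 0.60) and TGF-beta and BMP genes (18 tested, -0.04) gave none by limma or edgeR, with 1 TGF-beta and BMP gene at an unadjusted p under 0.05 and called by DESeq2. Small shifts in 1 direction ran through the largest lists. Of 73 ribosomal protein genes 67 had a negative sign (median -0.31) and in 34 both Lats1-CKO libraries lay below both WT libraries, against 18.2% of all genes. Of 69 respiratory chain genes 51 had a positive sign (median 0.17) and in 24 the groups were apart in the higher direction, against 17.1% of all genes. No gene of either list passed limma, edgeR or DESeq2, and 6 and 1 had an unadjusted p under 0.05.

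Imprinted genes and genes of the IGF axis included 1 of the called genes. Of 15 tested genes of the IGF axis and of imprinted loci 1 rose, Sgce, and 12 had a positive sign (median 1.10). Among all 9031 genes tested, 10 rose and 40 fell. Peg10, another imprinted gene, had 79.0 and 14.2 in Lats1-CKO basal-like cells, against 1.55 and 0 in WT basal-like cells (4.45 ± 1.27; limma adjusted p = 0.346). The binding protein Igfbp4 had 7021 and 38.8, against 529 and 217, and Igfbp5 had 20.1 and 2449, against 19.4 and 418, so each was high in a different Lats1-CKO library. Among Wnt genes 1 of 12 tested rose (Daam2) and 1 fell (Wnt7b), and the coreceptor Lrp6 had 150 and 129, against 55.2 and 68.4 (1.17 ± 0.42; limma adjusted p = 0.462).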

How the data were processed

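Expression was measured by MARS-seq, a 3' end method that barcodes RNA, amplifies it by T7 transcription and counts reads near the transcript end, in 8 libraries. The sample labels gave 4 groups of 2. The authors used cutadapt for trimming, STAR for alignment to mm10 and HTSeq to count reads over Gencode genes extended at both ends, and divided the counts by DESeq2 size factors. The deposited values are thus a normalized signal per gene, which came out as whole reads for 100% of values (tolerance 1e-06 of a read). All 8 columns of values were mapped. The deposited fold changes and p-values of the authors' own comparisons were not used.

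The 9031 of 10924 genes that reached 10 in 2 or more libraries were tested with limma 3.58.1 (R 4.3.3) on log2(value + 1), with an intensity trend and all 8 libraries in 1 model (4 residual and 3.42 prior degrees of freedom), with Benjamini-Hochberg adjustment over the 9031 genes and a threshold of 0.05. Fold changes on this scale understate those of low genes. The interaction was the basal-like minus the luminal genotype effect. Alternatives were edgeR 4.0.16 and DESeq2 1.42.0 on the recovered reads, other pseudocounts and filters, TMM scaling and leaving out each library. EdgeR was run on the 9031 genes and DESeq2 on all 10924. The genes named were drawn from Lats1, Lats2, the sort genes and keratins Krt5, Krt8, Krt14 and Krt18, all called genes except 3 that are not reported here, the called members of each list and, to 4 in all, its members of highest mean, the 10 genes with the largest gap between the libraries of a group, and genes with 0 to 3 reads in 1 group, of which not all are described. Named outside this rule, after their values were seen, are Trp63, Ctnna1, Cldn7, Tjp1, Spint2, Prom2, Myo5b, Sh3yl1, Dsp, Esrp1, Grhl2, Ovol1, Col6a3, P3h3, Snai2, Zeb1, Thy1, Dcn, Fmod, Mmp2, Tead2, Wwtr1, F3, Ccn2, Ankrd1, Ajuba, Hdac3, Ccna2, Peg10, Igfbp5 and Lrp6. The comparison, the lists and the motifs were chosen with earlier results of these data known. Symbols were matched to GENCODE M21 for coordinates, and promoters were taken from RefSeq (GRCm38.p6). Depth ran from 1070358 to 2334446 reads per library. Intervals of read ratios are exact at 95% and cover counting error only, since reads are not independent molecules. Scripts were tested on simulated data.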

Additional observations from a re-analysis of the deposited data

How the results depend on the processing

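The count of 50 genes called in basal-like cells became 17 with edgeR, 184 with DESeq2 at default settings, 170 with DESeq2 at the settings the study states and 0 with only the 4 basal-like libraries in the model, and ran from 0 to 78 when 1 library was left out (0 and 4 without replicate 1 or 2 of the WT basal-like group, 20 and 78 without replicate 1 or 2 of the Lats1-CKO basal-like group). The split of 10 higher and 40 lower genes became 89 and 95 with DESeq2 at default settings and 89 and 81 at the study's settings. In luminal cells the count of 0 became 27 with DESeq2 at either setting and 1 with a filter of at least 30 in at least 2 libraries, and ran from 0 to 2 with 1 library left out. The interaction count of 0 became 22 with DESeq2 at default settings and ran from 0 to 2 with 1 library left out, and DESeq2 at the study's settings gave no interaction value. The cause of these changes was not tested. The other pseudocounts and filters, TMM scaling and limma without the trend or with robust estimation left the basal-like count within 1.5 times of 50. All 50 called genes kept their direction under each alternative, and of 950 values 423 no longer passed the threshold. With groups that did not overlap, leaving out a library or changing the pseudocount or filter could not have reversed the direction. Of the 73 other tested genes named in the text 26 lost or changed their sign under some alternative, none of them past the threshold where the sign changed, and 54 of the 1378 values of all 73 passed it. With 1 library left out, the log2 fold changes of the 26 ran over Acan -0.33 to 7.14, Axl -0.04 to 0.13, Ccn2 -1.76 to 1.87, Ccna2 -0.53 to 0.86, Col15a1 0.00 to 5.92, Coro2b -1.42 to 4.63, Ctnnb1 -0.46 to 0.25, Cxcl12 -1.52 to 6.17, Cyp2f2 -5.64 to 1.02, Dsp -2.53 to 0.15, Gata3 -0.79 to 0.01, Igfbp4 -3.09 to 4.37 and Igfbp5 -2.13 to 4.73. The remaining ranges were Itga6 -1.70 to 0.29, Krt5 -0.41 to 0.35, Lox -0.75 to 4.64, Mir692-1 -5.00 to 4.39, Msx1 -0.68 to 6.87, Ncor1 -0.14 to 0.09, Pdgfra -0.10 to 4.33, Psmb8 -1.24 to 6.34, Rnase1 -4.23 to 2.01, Trp63 -2.61 to 1.88, Ucma -1.52 to 7.83, Wwc1 -3.19 to 0.19 and Wwtr1 -0.60 to 0.29. With edgeR, DESeq2 at default settings and DESeq2 at the study's settings, Coro2b became -0.36, -0.36 and -0.21, Mir692-1 became 1.03, 1.03 and 0.31, and Trp63 became 1.05, 1.06 and 0.39, and Trp63 became 0.19 with a pseudocount of 5. With 1 library left in a group, that library was assumed to vary like the other groups. No paired analysis was run, because the labels give the libraries no shared replicate numbers. The model treated the 8 libraries as independent. Yet each Lats1-CKO basal-like library was closer to the luminal library of its number (r of 0.852 and 0.868) than to its replicate (0.792). In WT cells basal-like replicate 1 was closer to luminal replicate 2 (0.942) than to luminal replicate 1 (0.895). The p-values, also those of the interaction, do not take such links into account. With 2 libraries a group, and 1 read worth up to 1.34 normalized reads, low genes and moderate changes were at the limit of what could be called.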

Other observations

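DESeq2 called genes that limma did not, of which the following were chosen after their values were seen. Cdsn, corneodesmosin, an adhesion protein of cornified skin, had 99.1 and 944 normalized reads in Lats1-CKO basal-like cells, against 1.55 and 2.39 in WT basal-like cells (limma log2 fold change 6.71, limma adjusted p = 0.0562). It was the only higher gene among the 22 that DESeq2 called for the interaction. Adgrg1, an adhesion G protein-coupled receptor, had 133 and 132, against 7.77 and 13.5 (3.56; limma adjusted p = 0.0562). Thbs3, a thrombospondin, had 68.3 and 85.4, against 1.55 and 2.39 (4.72; limma adjusted p = 0.085). In each of these genes the groups did not overlap.

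Foxj1, the regulator of motile cilia, had 10.7 and 49.2 in Lats1-CKO basal-like cells, against 711 and 383 in WT basal-like cells (-4.43; limma adjusted p = 0.126). Cgnl1, paracingulin, a junction protein, had 28.1 and 11.6, against 192 and 156 (-3.18; limma adjusted p = 0.107), and Spry1, a feedback inhibitor of receptor tyrosine kinase signals, had 22.8 and 31.1, against 152 and 202 (-2.68; limma adjusted p = 0.114). Tmem54 had 2 reads over both Lats1-CKO basal-like libraries, against 194 in WT basal-like cells, and missed the limma threshold (limma adjusted p = 0.138), with WT values of 133 and 18.3.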
